A study of Mus musculus with 6 samples.

Results

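The ligands and receptors of the TNF superfamily were examined in sorted mouse heart cells other than cardiomyocytes (non-CMs). Members were all rows of the count table with a Tnfsf or Tnfrsf number in the gene symbol, plus Tnf, Lta, Ltb, Ltbr, Fas, Fasl, Cd40, Cd27 and Cd70. This gave 41 of 24062 symbols, 17 ligands and 24 receptors, and 28 of them (9 ligands and 19 receptors) reached 10 or more counts in 3 or more libraries. The rule used symbols and a count minimum, but members were chosen with earlier results of these data known. The minimum could be reached through Tw2- alone, as for 4 members named below. Of the 28, 27 passed the low-count filter of the test and 1, Tnfrsf9, did not.

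The compared cells were tdTomato-positive (Tw2+) and tdTomato-negative (Tw2-) non-CMs, with 3 libraries each. All came from Tw2-CreERT2;R26-tdTO mice given tamoxifen at 8 weeks of age, so both groups carry both alleles and the drug. Tamoxifen activates a Cre recombinase driven by Twist2, a transcription factor of mesenchymal cells, and Cre then switches on the red fluorescent protein tdTomato for good. Hearts were digested 10 days after the first dose, at a recorded age of 9 weeks, and the cells were sorted on tdTomato and on the mitochondrial dye Mitoview633. Tw2- therefore holds every sorted cell without tdTomato, whatever its type. The labels describe pooled cardiac cells without the number of hearts per library. In each group, 1 library has no replicate number in its column name and is called unnumbered. Total counts were 11746696 to 16447098 per library, and expression is given as CPM, the read count relative to the TMM-scaled size of the library.

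TNF superfamily ligands are mostly membrane proteins that act as trimers, and some are shed by proteases such as Adam17. Their receptors carry cysteine-rich repeats outside the cell. Receptors with a death domain, such as Fas and Tnfrsf1a, can recruit Fadd and caspase-8, while most others bind TRAF adapters and activate NF-kB and MAP kinases. Decoy receptors bind a ligand without passing on a signal. In tissue the ligands are made largely by leukocytes, while stromal cells and endothelium carry several of the receptors.

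Windows of 250 bases before the start site are shown for a pair of receptors that were higher in Tw2+, Tnfrsf12a and Tnfrsf21, and a pair of ligands that were lower, Tnf and Tnfsf11. They come from RefSeq on GRCm38.p6 and are written 5′ to 3′ on the gene's strand. Their positions are chr17:23677450-23677699 (- strand) for Tnfrsf12a, chr17:43016305-43016554 (+ strand) for Tnfrsf21, chr17:35202008-35202257 (- strand) for Tnf and chr14:78308044-78308293 (- strand) for Tnfsf11. Capitals mark GC boxes (GGGCGG) and TATA boxes (TATAAA), searched on both strands.
Tnfrsf12a: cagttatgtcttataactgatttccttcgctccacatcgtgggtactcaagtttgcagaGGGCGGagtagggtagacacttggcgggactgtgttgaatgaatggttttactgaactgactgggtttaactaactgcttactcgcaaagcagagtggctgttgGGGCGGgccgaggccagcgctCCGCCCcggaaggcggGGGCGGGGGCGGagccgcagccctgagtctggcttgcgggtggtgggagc
Tnfrsf21: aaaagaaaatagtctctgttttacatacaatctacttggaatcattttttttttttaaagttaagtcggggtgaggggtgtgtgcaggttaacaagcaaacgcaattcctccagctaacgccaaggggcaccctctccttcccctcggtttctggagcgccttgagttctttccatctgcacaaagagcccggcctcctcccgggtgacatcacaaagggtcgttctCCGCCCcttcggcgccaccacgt
Tnf: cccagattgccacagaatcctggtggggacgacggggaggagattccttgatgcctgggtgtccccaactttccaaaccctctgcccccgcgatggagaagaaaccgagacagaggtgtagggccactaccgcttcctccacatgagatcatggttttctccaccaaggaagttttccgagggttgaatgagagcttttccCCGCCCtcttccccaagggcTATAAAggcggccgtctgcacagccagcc
Tnfsf11: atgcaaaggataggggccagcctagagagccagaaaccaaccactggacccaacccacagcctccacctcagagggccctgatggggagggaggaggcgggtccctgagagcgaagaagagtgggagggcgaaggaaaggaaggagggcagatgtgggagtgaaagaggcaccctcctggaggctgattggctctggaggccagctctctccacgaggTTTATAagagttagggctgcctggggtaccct
The Tnfrsf12a window holds 5 GC boxes, some of them adjoining, and the Tnfrsf21 window holds 1. The Tnf window holds 1 GC box and a TATA box whose first base lies at -29 from the start site, and the Tnfsf11 window has a TATA box on the opposite strand from -32. In windows of the same length over 32851 start sites, 32.7% held a GC box and 12.4% a TATA box. Of the 12 windows found for 10 of the 12 members past the test, 5 held a GC box and 2 a TATA box. The NF-kB motif was in 2 of these windows and in 7.25% of all windows, the AP-1 motif TGANTCA in 1 and in 6.75%, and the E-box CANNTG in 10 and in 66.2%. These are letter matches only.

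The libraries differed in more than the tdTomato label. On the first principal component of log2 CPM, with 77.3% of the variance, Tw2+ 3 and the unnumbered Tw2- library lay closest to each other across the groups, so values without them are given where they change a result. Twist2 had 7.35, 6.50 and 6.95 CPM in replicates 2 and 3 and the unnumbered library of Tw2+, against 2.41, 2.90 and 5.18 CPM in those of Tw2- (log2 fold change of 1.00 with SE 0.34, adjusted p = 0.0738). It did not pass here, but did so by DESeq2 (adjusted p = 0.0333), when the unnumbered Tw2- library was left out (1.33, adjusted p = 0.0365) and with that library and Tw2+ 3 both left out (1.41, adjusted p = 0.00947). Gm29100 overlaps 46.5% of its exons on the opposite strand, and reads of the pair may not be separated. Fibroblast markers were abundant in both groups, with a summed level over 13 genes of 30881 to 34192 CPM in Tw2+ and 17863 to 26757 CPM in Tw2-, and 1 of 13 passed the test, higher. Leukocyte markers were scarce in Tw2+. The 14 macrophage and monocyte markers summed to 131 to 315 CPM in Tw2+ and 2647 to 5817 CPM in Tw2-, and all 14 were lower. The 6 granulocyte markers summed to 2.42 to 2.85 and 153 to 321 CPM (6 lower, with Cxcr2 and Retnlg at 0 counts in Tw2+), and the 6 B cell markers to 1.31 to 1.54 and 19.5 to 25.2 CPM (5 tested, 5 lower, with Blk and Pax5 at 0 counts in Tw2+). The 7 T and NK cell markers found summed to 0.302 to 1.64 and 4.63 to 24.2 CPM, and 1 was tested and lower. Of 14 vascular endothelial markers 4 were lower (696 to 1420 CPM in Tw2+, 1117 to 3071 CPM in Tw2-), and of 14 cardiomyocyte markers 12 were lower (814 to 1465 and 1214 to 2181 CPM). Of 6 lymphatic endothelial markers 1 was higher and 4 lower (266 to 672 and 324 to 431 CPM), of 9 pericyte markers 1 was higher and 1 lower (681 to 749 and 499 to 867 CPM), and of 5 tested smooth muscle markers 2 were lower (176 to 184 and 186 to 195 CPM over 7). Past the test or not, all 14 vascular endothelial markers were fitted below 0 (median log2 fold change of -2.19). Of the pericyte markers, 8 were fitted below 0 and 1 above. The part of cell composition in the differences below was not tested, and in these bulk samples fewer cells of a type and less RNA per cell cannot be told apart.

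The superfamily was tested by edgeR's quasi-likelihood test with Benjamini-Hochberg adjustment over all 13180 genes tested, at an adjusted p under 0.05, and all fold changes are Tw2+ over Tw2-. Of the 27 tested members, 4 were higher in Tw2+, or 14.8%, against 7.41% of all tested genes. Another 8 were lower, or 29.6%, against 10.8% of all tested genes. The 4 higher members were all receptors, and the 8 lower ones were 5 ligands and 3 receptors. Of the 18 tested receptors 11 were fitted above 0, against 6606 of all 13180 tested genes. It was 7 receptors with scaling by library size alone and 5 relative to the fibroblast markers. These scalings moved the median log2 fold change of all genes to -0.28 and -0.61. Of the 9 tested ligands none was fitted above 0 under any of these scalings. For the ligands Tnfsf11, Ltb and Tnfsf14 this direction was set by the count minimum, as given below. The median log2 fold change was -0.40 over the members and 0.0019 over all genes. The 4 members Tnfsf11, Ltb, Tnfsf14 and Tnfrsf18 had under 10 counts in every Tw2+ library and reached the count minimum only through Tw2-, so they had to differ. Without these 4, 4 of 23 tested members were higher and 4 lower (17.4% each), with a median log2 fold change of -0.09. Tnfrsf11a and Tnfrsf19 reached 10 counts in only 1 library of the group where they were low. The counts of members are therefore a description. The groups did not overlap for 15 of 27 members (55.6%), against 37.4% of all tested genes. Without the 4 members that reached the count minimum only through Tw2-, this was 11 of 23 (47.8%). Genes of that kind were not taken out of the shares of all tested genes, so those shares do not match the 23 members.

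**Figure D1:**
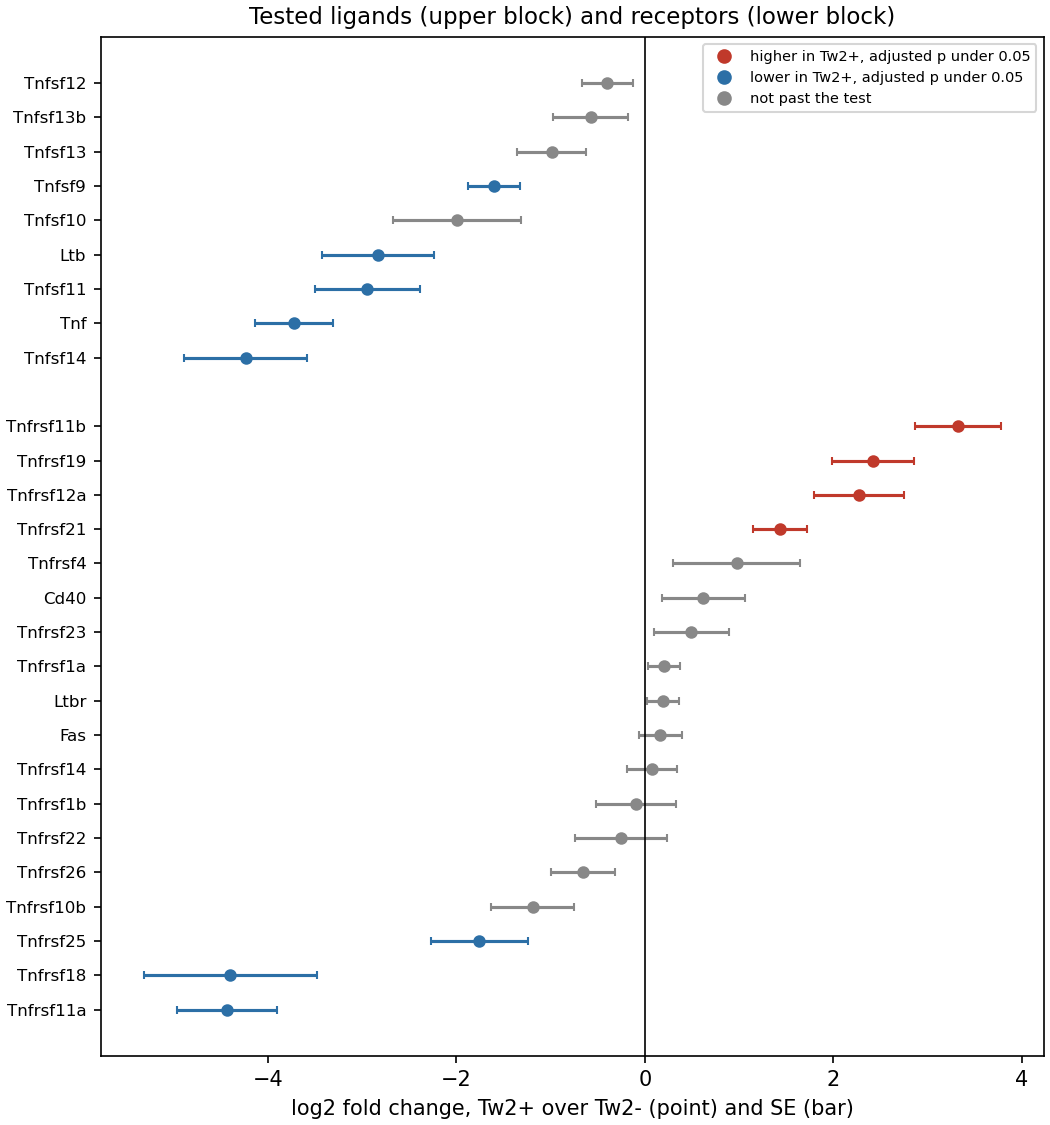
Log2 fold change, Tw2+ over Tw2-, of the 27 tested members with its standard error (bar), ligands in the upper and receptors in the lower block, each ordered by fold change. Red marks the 4 members higher and blue the 8 lower in Tw2+ at an adjusted p under 0.05. All 9 ligands lie left of 0, and the receptors spread from -4.44 for Tnfrsf11a to 3.33 for Tnfrsf11b. Tnfsf11, Ltb, Tnfsf14 and Tnfrsf18 reached the count minimum only through Tw2-, so they had to lie left of 0.

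Tnfrsf11b encodes osteoprotegerin, a secreted decoy receptor that captures the ligands encoded by Tnfsf11 and Tnfsf10. It lies at chr15:54250619-54278484 of GRCm38 on the - strand with 5 exons in the GENCODE M21 model. Its values were 35.4, 12.8 and 37.0 CPM in Tw2+ (replicate 2, replicate 3 and the unnumbered library, an order kept below). In the Tw2- libraries they were 2.47, 3.87 and 2.04 CPM. Every Tw2+ library lay above every Tw2- library, and Tw2+ 3 was the lowest of the Tw2+ libraries. The means were 28.4 ± 13.6 CPM in Tw2+ and 2.79 ± 0.955 CPM in Tw2- (SD, n = 3 each), a 10.0-fold difference (log2 fold change of 3.33 with SE 0.45, adjusted p = 0.00161). The difference passed in each of the 6 fits that left out 1 library (leave-one-out fits).

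Tnfrsf12a, at chr17:23675445-23677468 (- strand, 2 exon blocks), encodes the receptor of the ligand Tnfsf12 (TWEAK) and is inducible by growth factors. It was the most abundant member per kilobase of exon in every Tw2+ library, where the 3 libraries in the same order had 519, 236 and 769 CPM, against 158, 58.1 and 98.3 CPM in the Tw2- libraries. The lowest Tw2+ value, in Tw2+ 3, stood above the highest Tw2- value, in Tw2- 2. The difference was 4.84-fold (log2 fold change of 2.28 with SE 0.48, adjusted p = 0.0147). It did not pass without Tw2- 3 (1.92, adjusted p = 0.0626), without the unnumbered Tw2- library (2.17, adjusted p = 0.0539) or with scaling to the fibroblast markers (1.56, adjusted p = 0.0504). The ligand Tnfsf12 was measured in every library, at 15.8, 23.7 and 13.6 CPM in Tw2+ and 18.8, 28.3 and 22.9 CPM in Tw2-. These groups overlapped and the ligand did not pass the test (log2 fold change of -0.40 with SE 0.27, adjusted p = 0.317). The gene model Tnfsfm13 covers 48.3% of the Tnfsf12 exons on the same strand, so the counts of these models may share reads. Per kilobase of exon, Tnfrsf12a stood 7.82 to 44.3 times above Tnfsf12 in the Tw2+ libraries and 1.61 to 6.62 times above it in the Tw2- libraries.

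Tnfrsf21 encodes a death domain receptor that is broadly expressed. It lies at chr17:43016555-43089189 on the + strand with 6 exon blocks. It had 137, 63.5 and 134 CPM in Tw2+ and 44.2, 38.3 and 41.3 CPM in Tw2-, in the library order above. The Tw2- libraries were close together, and Tw2+ 3 was nearer to them than to the other Tw2+ libraries. The difference was 2.70-fold (log2 fold change of 1.44 with SE 0.29, adjusted p = 0.0125). It did not pass without Tw2+ 2 (1.27, adjusted p = 0.0504), without Tw2- 3 (1.32, adjusted p = 0.0674) or with scaling to the fibroblast markers (0.78, adjusted p = 0.0940).

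Tnfrsf19, also called Troy, encodes a receptor known from hair follicles, neural tissue and Wnt-responsive stem cells. It lies at chr14:60963875-61046490 on the - strand with 12 exon blocks. It was scarce, with 26, 26 and 38 counts in the Tw2+ libraries and 6, 11 and 7 counts in the Tw2- libraries. The corresponding levels were 2.25, 2.11 and 3.83 CPM in Tw2+ and 0.362, 0.591 and 0.550 CPM in Tw2-, with no overlap. The difference was 5.35-fold (log2 fold change of 2.42 with SE 0.44, adjusted p = 0.00713) and passed in each of the 6 leave-one-out fits. For all 4 higher receptors Tw2+ 3 was the lowest Tw2+ library.

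**Figure D2:**
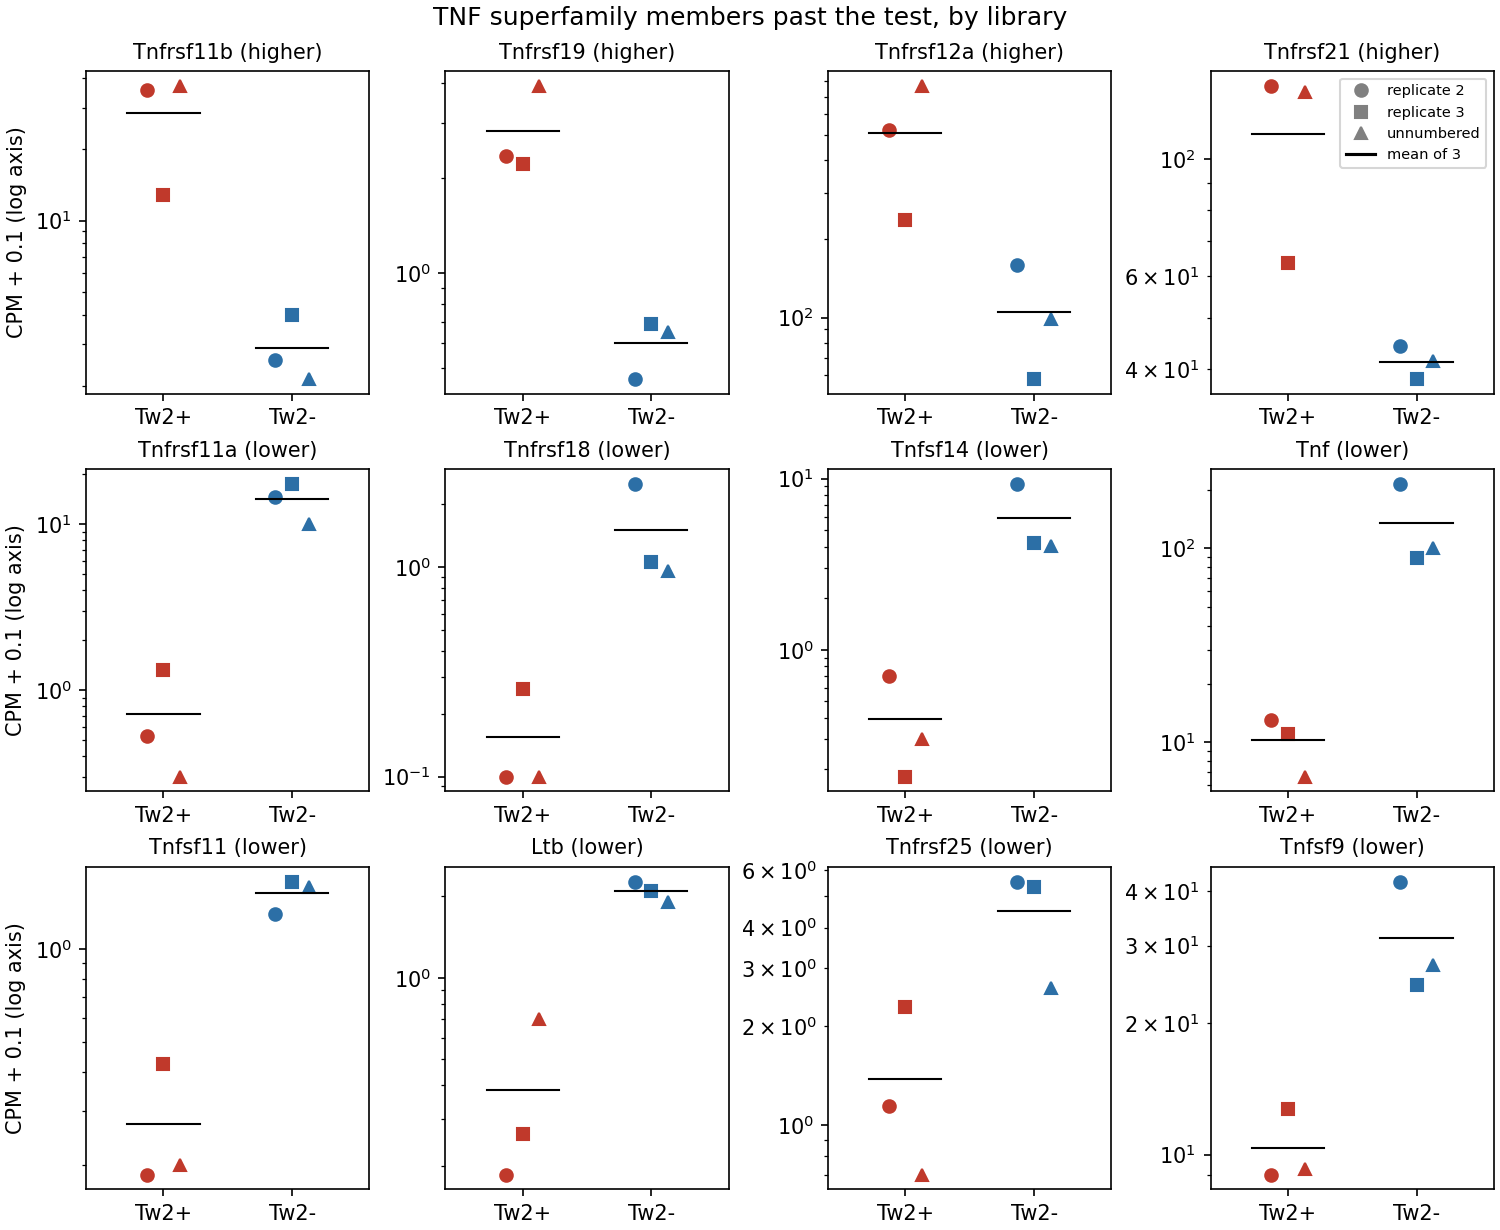
CPM plus 0.1 on a log axis, scaled per panel, in each library for the 12 members past the test, Tw2+ (red) left of Tw2- (blue), with marker shape for the replicate and a line at the mean of 3. The groups do not overlap for any of the 12, and Tw2+ 3 (red square) is the lowest Tw2+ library for all 4 higher receptors.

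The ligand that osteoprotegerin captures and that ligand's signalling receptor were both lower in Tw2+. Tnfrsf11a encodes RANK, the receptor that osteoclast precursors and other myeloid cells use to sense Tnfsf11 (RANKL), and lies at chr1:105780718-105847981 (+ strand, 10 exon blocks). It had 0.432, 1.22 and 0.201 CPM in Tw2+ (5, 15 and 2 counts) and 14.5, 17.4 and 9.97 CPM in Tw2-, in the order of replicate 2, replicate 3 and the unnumbered library. The receptor was 21.7-fold lower in Tw2+ (log2 fold change of -4.44 with SE 0.53, adjusted p = 0.000759) and passed in each of the 6 leave-one-out fits. Its ligand Tnfsf11, at chr14:78277445-78308043, was near the counting limit, with 1, 4 and 1 counts in Tw2+ and 20, 29 and 19 counts in Tw2-. Tnfsf11 reached the count minimum only through Tw2-, so it had to differ. Its log2 fold change was -2.95 with SE 0.56 (adjusted p = 0.00920), and it was not past the test without Tw2+ 2 (adjusted p = 0.0529). From summed counts on scaled library sizes, Tnfsf11 was 7.99-fold lower (95% exact interval 3.49 to 22.5, counting error only).

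Ratios of these genes within a library do not depend on scaling between libraries. Per kilobase of exon, the level of Tnfrsf11b divided by that of Tnfrsf11a was 22.2 to 389.7 in the Tw2+ libraries and 0.361 to 0.472 in the Tw2- libraries. The lowest Tw2+ ratio was in Tw2+ 3. The highest, in the unnumbered Tw2+ library, rested on 2 counts of Tnfrsf11a (95% exact interval 107 to 3230). Over the summed counts the ratio was 90.2 in Tw2+ (95% exact interval 59.2 to 145) and 0.427 in Tw2- (0.353 to 0.513). The level of Tnfrsf11b divided by that of Tnfsf11 was 31.1 to 325 in the Tw2+ libraries, lowest in Tw2+ 3, and 1.09 to 1.97 in the Tw2- libraries. Its highest value, in Tw2+ 2, rested on 1 count of Tnfsf11 (58.1 to 12881). Over the summed counts the ratio to Tnfsf11 was 124 in Tw2+ (56.5 to 337) and 1.62 in Tw2- (1.21 to 2.20), from 6 and 68 counts of Tnfsf11. These intervals cover counting error only. Both ratios divide genes already past the test in opposite directions, so their differences between the groups are a description. Tnfsf11 reached the count minimum only through Tw2-, so its low counts under the Tw2+ ratios were set in advance.

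Tnfsf10 encodes TRAIL, which binds the death receptor Tnfrsf10b and, in mice, the decoy receptors Tnfrsf22 and Tnfrsf23. Tnfsf10 had 1.47, 5.94 and 1.71 CPM in Tw2+ and 18.3, 14.7 and 3.61 CPM in Tw2-. The unnumbered Tw2- library lay below Tw2+ 3, so the groups overlapped, and the difference did not pass (log2 fold change of -1.99 with SE 0.68, adjusted p = 0.0706). It passed in DESeq2 (adjusted p = 0.0153), with no count filter (adjusted p = 0.0331), with scaling to the fibroblast markers (adjusted p = 0.0339), without Tw2+ 3 (-2.94, adjusted p = 0.00839) and without the unnumbered Tw2- library (-2.46, adjusted p = 0.0340). Tnfrsf10b had 3.54, 5.69 and 3.32 CPM in Tw2+ and 15.2, 8.71 and 4.79 CPM in Tw2- and did not pass (log2 fold change of -1.19 with SE 0.44, adjusted p = 0.0872). It passed without Tw2+ 3 (adjusted p = 0.0344), without the unnumbered Tw2- library (adjusted p = 0.0425) and with scaling to the fibroblast markers (adjusted p = 0.0351). Over the libraries Tnfrsf22 ranged from 1.04 to 3.12 CPM in Tw2+ and 1.34 to 2.84 CPM in Tw2-, Tnfrsf23 from 4.55 to 9.57 and 3.53 to 7.12 CPM, and their neighbour on chromosome 7, Tnfrsf26, from 1.87 to 3.37 and 3.39 to 4.71 CPM. Neither decoy passed, with log2 fold changes of -0.26 for Tnfrsf22 (SE 0.49, adjusted p = 0.728) and 0.49 for Tnfrsf23 (SE 0.40, adjusted p = 0.396). Tnfrsf26 was at -0.66 (SE 0.34, adjusted p = 0.196), and passed with scaling to the fibroblast markers (-1.28, adjusted p = 0.0336). These 3 genes are close relatives, and reads may be shared among them.

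Tnf itself, the inflammatory cytokine of macrophages and other leukocytes, had the lowest adjusted p of the 27 tested members. It lies at chr17:35199381-35202007 (- strand, 4 exons), next to Lta and Ltb. It had 12.96, 10.98 and 6.55 CPM in Tw2+ and 216, 89.1 and 100.1 CPM in Tw2-. The highest Tw2+ library, Tw2+ 2, was far under the lowest Tw2- library, Tw2- 3, and Tw2- 2 stood above the rest of its group. Tnf was 13.2-fold lower (log2 fold change of -3.73 with SE 0.41, adjusted p = 0.000521) and passed in each of the 6 leave-one-out fits. Over the macrophage and monocyte markers the median log2 fold change was -4.40, and the part of those cells in the level of Tnf was not tested.

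Neither receptor of Tnf passed the test. Tnfrsf1a, the death domain receptor found on nearly all cells, had 246, 219 and 223 CPM in Tw2+ and 205, 201 and 192 CPM in Tw2-. The groups did not overlap, but the difference was small and did not pass (log2 fold change of 0.20 with SE 0.17, adjusted p = 0.413). Tnfrsf1b, the inducible receptor of leukocytes, endothelium and some stromal cells, had 277, 139 and 326 CPM in Tw2+ and 441, 156 and 196 CPM in Tw2-. The highest value of all, in Tw2- 2, and the lowest, in Tw2+ 3, set a wide spread, and the difference did not pass (log2 fold change of -0.09 with SE 0.43, adjusted p = 0.894). The fitted difference of Tnfrsf1b changed sign without Tw2- 2 (0.45) and without Tw2+ 3 (0.20). That of Tnfrsf1a was -0.08 with scaling by library size alone and -0.43 relative to the fibroblast markers.

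The lymphotoxin ligands were scarce. Ltb, the lymphotoxin subunit of lymphocytes, had 1, 2 and 6 counts in Tw2+ and 36, 37 and 23 counts in Tw2- and was lower (log2 fold change of -2.83 with SE 0.59, adjusted p = 0.0141). It did not pass without Tw2+ 2 (adjusted p = 0.0618) or without Tw2- 3 (adjusted p = 0.0540). Tnfsf14 encodes LIGHT, a ligand of activated leukocytes that binds Tnfrsf14 and Ltbr, and lies at chr17:57189492-57194177. It had 7, 1 and 2 counts in Tw2+ and 153, 76 and 50 counts in Tw2-, an 18.9-fold lower level in Tw2+ (log2 fold change of -4.24 with SE 0.65, adjusted p = 0.00314) that passed in each of the 6 leave-one-out fits. Ltb and Tnfsf14 reached the count minimum only through Tw2-, so they had to differ and these values are a description. The receptor Ltbr, typical of stromal and myeloid cells, had 69.4, 62.4 and 77.6 CPM in Tw2+ and 61.6, 63.5 and 58.3 CPM in Tw2-, which overlapped (log2 fold change of 0.19 with SE 0.17, adjusted p = 0.448). Tnfrsf14, the herpesvirus entry mediator, had 6.65, 6.18 and 5.54 CPM in Tw2+ and 6.58, 6.02 and 4.79 CPM in Tw2-, also overlapping (log2 fold change of 0.08 with SE 0.27, adjusted p = 0.853).

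Tnfsf9, a co-stimulatory ligand of antigen-presenting cells, was lower in Tw2+. It lies at chr17:57105325-57107757, and the gene Gm11110 overlaps 14.9% of its exons on the opposite strand. It had 8.90, 12.6 and 9.17 CPM in Tw2+ and 41.9, 24.3 and 26.9 CPM in Tw2-, with no overlap. It was 3.03-fold lower (log2 fold change of -1.60 with SE 0.28, adjusted p = 0.00620) and passed in each of the 6 leave-one-out fits. Its receptor Tnfrsf9, a co-stimulatory receptor of activated T and NK cells, was not tested and had 10, 0 and 2 counts in Tw2+ and 74, 6 and 28 counts in Tw2-, with overlapping groups.

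A further pair of lymphocyte receptors, Tnfrsf18 and Tnfrsf25, was lower. Tnfrsf4, also a receptor of T cells, was fitted above 0 but did not pass (log2 fold change of 0.97 with SE 0.67, adjusted p = 0.320). Of the 7 T and NK cell markers found, 1 was tested and lower. The part of those cells in these levels was not tested. Tnfrsf18, a co-stimulatory receptor of regulatory T cells, had 0, 2 and 0 counts in Tw2+ and 40, 18 and 11 counts in Tw2-. With 2 Tw2+ counts, the summed counts gave a 24.3-fold lower level with a 95% exact interval of 6.49 to 205 for counting error, and the adjusted p was 0.0145. It was 0.0574 without Tw2+ 2, and Gm16008 overlaps 27.2% of the exons on the opposite strand. Tnfrsf18 reached the count minimum only through Tw2-, so it had to differ. Tnfrsf25, the death domain receptor of Tnfsf15 found on T cells, had 1.04, 2.20 and 0.604 CPM in Tw2+ and 5.43, 5.21 and 2.51 CPM in Tw2-. The highest Tw2+ and the lowest Tw2- library nearly met, and the difference just passed (log2 fold change of -1.76 with SE 0.51, adjusted p = 0.0453). It passed in 2 of the 6 leave-one-out fits, those without Tw2+ 3 (adjusted p = 0.00689) and without the unnumbered Tw2- library (adjusted p = 0.0422), and had adjusted p of 0.129 when the unnumbered Tw2+ library was left out, 0.157 for Tw2+ 2, 0.122 for Tw2- 2 and 0.161 for Tw2- 3.

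Among the remaining members, Tnfsf13b and Tnfsf13 encode BAFF and APRIL, survival factors of B and plasma cells. Tnfsf13b had 3.02, 7.32 and 3.53 CPM in Tw2+ and 5.91, 9.14 and 5.65 CPM in Tw2- (log2 fold change of -0.57 with SE 0.40, adjusted p = 0.319), and it passed without Tw2+ 3 (-1.08, adjusted p = 0.0351). Tnfsf13 had 1.38, 1.79 and 1.71 CPM in Tw2+ and 3.32, 4.14 and 2.20 CPM in Tw2-, without overlap but not past the test (log2 fold change of -0.99 with SE 0.37, adjusted p = 0.0887). Tnfsf13 passed with scaling to the fibroblast markers (-1.62, adjusted p = 0.0304) and with Tw2+ 3 and the unnumbered Tw2- library both left out (-1.29, adjusted p = 0.0338). Tnfsfm13 covers 60.0% of its exons on the same strand. The groups overlapped for Tnfsf13b. The B cell receptors of both ligands lay under the count minimum, with summed counts in Tw2+ and Tw2- of 2 and 41 for Tnfrsf13b, 2 and 46 for Tnfrsf13c, and 2 and 44 for Tnfrsf17.

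Cd40 and Fas were measured in both groups. Cd40, the receptor of B cells and antigen-presenting cells that stromal cells also carry, had 28.9, 13.9 and 51.8 CPM in Tw2+ and 28.7, 15.0 and 17.7 CPM in Tw2-. The unnumbered Tw2+ library was the highest and Tw2+ 3 the lowest of all 6, and the difference did not pass (log2 fold change of 0.62 with SE 0.44, adjusted p = 0.336). It passed without Tw2+ 3 (0.98, adjusted p = 0.0392). Its ligand gene Cd40lg, which is outside the member rule, had 0, 3 and 0 counts in Tw2+ and 1, 3 and 2 counts in Tw2-. Fas, the death receptor of Fasl, had 33.2, 25.1 and 28.4 CPM in Tw2+ and 32.5, 22.4 and 22.4 CPM in Tw2- (log2 fold change of 0.17 with SE 0.23, adjusted p = 0.628), and Fasl had 8 summed counts in Tw2+ and 66 in Tw2-, of which 51 were in Tw2- 2. Tnfrsf4, a co-stimulatory receptor of T cells, had 1.81, 0.325 and 1.71 CPM in Tw2+ and 1.09, 0.430 and 0.393 CPM in Tw2- (log2 fold change of 0.97 with SE 0.67, adjusted p = 0.320). The groups overlapped for Cd40, Fas and Tnfrsf4.

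The other members under the count minimum were scarce. Their summed counts in Tw2+ and Tw2- were 28 and 29 for Tnfsf18, 16 and 8 for Tnfsf15, 7 and 8 for Tnfsf4, 6 and 15 for Tnfsf8, 7 and 11 for Lta and 1 and 2 for Cd70. They were 3 and 56 for Cd27, of which 44 were in Tw2- 2, 8 and 26 for Tnfsf12Tnfsf13, the read-through of neighbouring genes, and 0 and 4 for Tnfrsf8. A count of 3 in a library equals 0.161 to 0.302 CPM, so levels below this rested on very few reads and were measured poorly at this depth.

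Levels per kilobase of exon (RPKM) put receptors at the 6 highest places in Tw2+. The mean of Tnfrsf12a was 263 ± 138 RPKM in Tw2+ and 54.3 ± 26.1 RPKM in Tw2-. Next came Tnfrsf1a with 88.5 ± 5.68 RPKM in Tw2+ and 76.9 ± 2.63 RPKM in Tw2-, and Tnfrsf1b with 64.8 ± 25.4 RPKM in Tw2+ and 69.2 ± 40.4 RPKM in Tw2- (SD, n = 3 each). The ranges of Tnfrsf1a (84.6 to 95.1) and Tnfrsf1b (36.5 to 85.4) overlapped in Tw2+. Among the receptors Ltbr, Tnfrsf21, Fas, Tnfrsf11b and Cd40 followed, at mean RPKM in Tw2+ between 29.6 and 9.25. Among the ligands in Tw2+, Tnfsf12 led with 8.98 to 15.6 RPKM over the libraries, followed by Tnfsf9 with 6.90 to 9.77 and Tnf with 3.995 to 7.91. In Tw2- the order was Tnf with 54.4 to 131, Tnfsf9 with 18.8 to 32.5 and Tnfsf12 with 12.4 to 18.7 RPKM, and Tnfsf9 and Tnfsf12 nearly met there. The other 6 ligands averaged at most 0.995 RPKM in Tw2+.

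**Figure D3:**
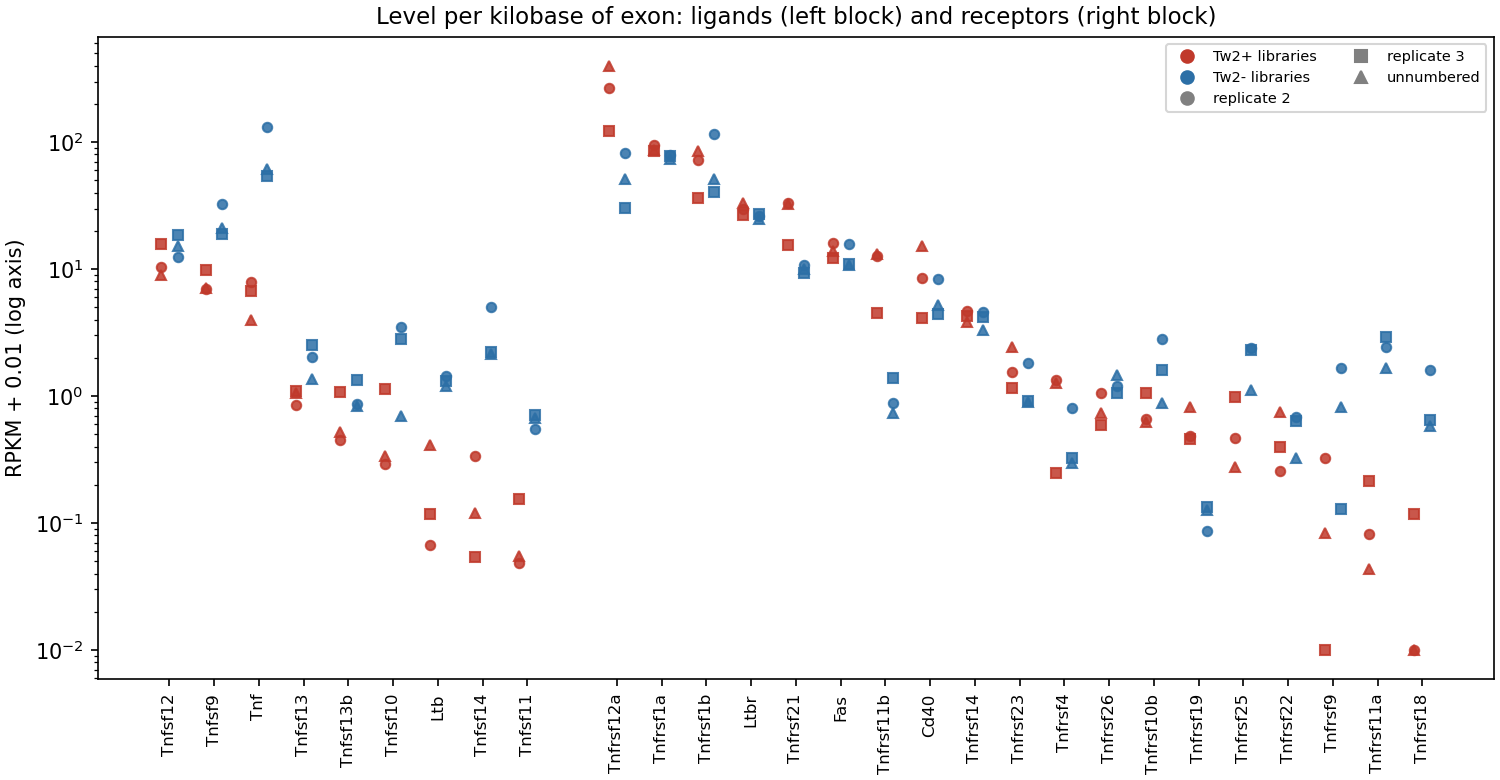
RPKM plus 0.01 on a log axis for the 28 reported members in each library, ligands in the left and receptors in the right block, ordered by the Tw2+ mean, with Tw2+ (red) left of Tw2- (blue). Tnfrsf12a is the highest member in every Tw2+ library, and Tnf is the highest ligand in every Tw2- library.

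A signalling list of 43 genes, of which 41 were tested, held genes that act downstream of the receptors. It also held the protease Adam17, the ligand Eda and the receptors Ngfr, Edar, Eda2r and Relt. Of the tested list genes 1, the receptor Relt, was higher in Tw2+ and 6 were lower, or 2.44% and 14.6%, with a median log2 fold change of -0.12. Over all tested genes the shares were 7.41% and 10.8%, and the median was 0.0019. Traf1, an adapter induced by NF-kB in activated leukocytes, had 1.38, 0.813 and 1.11 CPM in Tw2+ and 35.5, 11.2 and 20.5 CPM in Tw2- (log2 fold change of -4.34 with SE 0.49, adjusted p = 0.000576). Tnfaip3 encodes A20, the ubiquitin-editing enzyme that limits NF-kB signalling and is itself an NF-kB target, and had 48.1, 45.1 and 69.7 CPM in Tw2+ and 501, 272 and 279.8 CPM in Tw2- (log2 fold change of -2.69 with SE 0.31, adjusted p = 0.000638). Casp8, the initiator caspase of death receptors, had 11.1, 11.2 and 8.46 CPM in Tw2+ and 30.2, 40.0 and 20.6 CPM in Tw2- (log2 fold change of -1.56 with SE 0.28, adjusted p = 0.00756). The groups did not overlap for any of the 3, and all 3 passed in each of the 6 leave-one-out fits.

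The other calls of that list passed in fewer of these fits. The deubiquitinase Cyld (log2 fold change of -0.79 with SE 0.20, adjusted p = 0.0301), the kinase Map3k14 of the alternative NF-kB route (log2 fold change of -0.83 with SE 0.22, adjusted p = 0.0364) and the caspase inhibitor Xiap (log2 fold change of -0.79 with SE 0.22, adjusted p = 0.0422) were lower, and their means were 22.5 ± 3.50 CPM in Tw2+ and 38.9 ± 2.86 CPM in Tw2-, 22.4 ± 4.53 CPM in Tw2+ and 39.7 ± 5.70 CPM in Tw2-, and 51.0 ± 13.7 CPM in Tw2+ and 88.1 ± 9.43 CPM in Tw2-, in the same order of genes (SD, n = 3 each). Relt, a receptor of the same superfamily named otherwise, was higher, with 31.4, 14.6 and 26.8 CPM in Tw2+ and 13.8, 8.01 and 6.99 CPM in Tw2- (log2 fold change of 1.33 with SE 0.36, adjusted p = 0.0367). Cyld, Map3k14 and Xiap passed in 1 of the 6 leave-one-out fits, the one without Tw2+ 3, and Relt in 2, those without Tw2+ 3 and without Tw2- 2. Relt also did not pass with scaling by library size alone (adjusted p = 0.0734) or to the fibroblast markers (adjusted p = 0.285), nor Xiap with upper-quartile scaling (adjusted p = 0.0514). By level per kilobase the leading genes in Tw2+ were Ripk1, the kinase of TNF receptor complexes (36.9 ± 2.97 RPKM in Tw2+ and 29.9 ± 8.35 RPKM in Tw2-), the ubiquitin ligase Birc3 (27.8 ± 5.09 RPKM in Tw2+ and 39.4 ± 9.34 RPKM in Tw2-) and the adapter Tab2 (25.7 ± 4.36 RPKM in Tw2+ and 23.6 ± 1.89 RPKM in Tw2-, SD, n = 3 each). None of these 3 passed (Birc3 did with scaling to the fibroblast markers, adjusted p = 0.0320), with log2 fold changes of 0.30 (SE 0.24, adjusted p = 0.384), -0.50 (SE 0.24, adjusted p = 0.159) and 0.13 (SE 0.19, adjusted p = 0.665). By role, 1 of 8 tested adapters, 1 of 12 kinases and complex proteins, 3 of 11 ubiquitin ligases and editors and 1 of 5 genes of the caspase arm were lower. None of these groups held a higher gene. Over all tested genes 10.8% were lower and 7.41% higher, and groups this small are a description only. Of the 6 TRAF adapters, Traf1 alone passed.

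**Figure D4:**
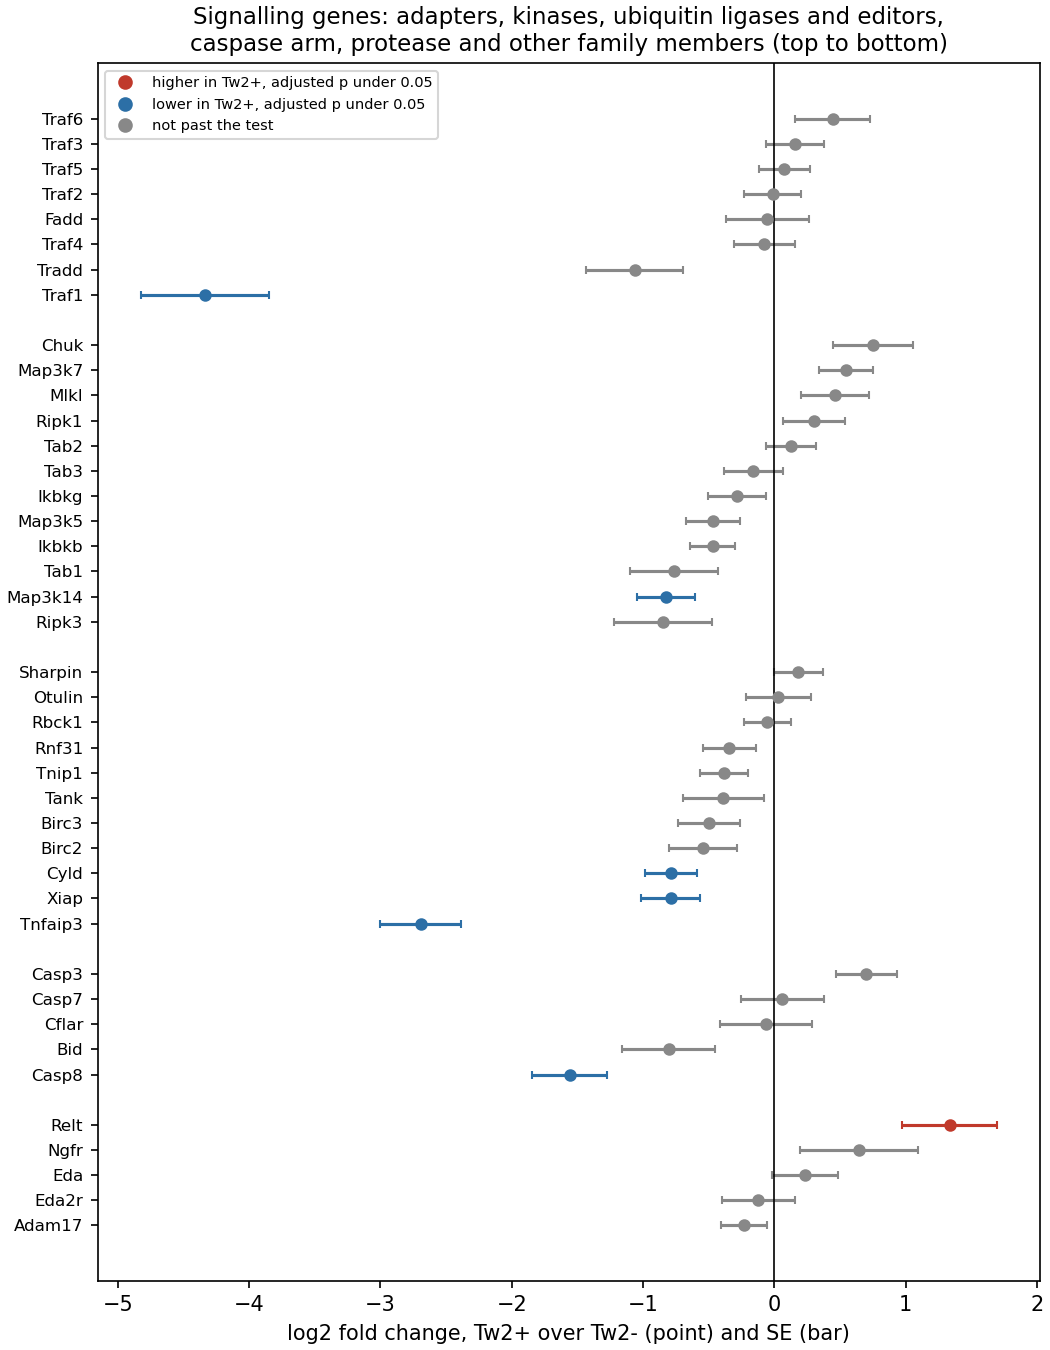
Log2 fold change, Tw2+ over Tw2-, with its standard error (bar) for the 41 tested genes of the signalling list in 5 blocks by role, each ordered by fold change. Red marks Relt, the 1 gene higher, and blue the 6 genes lower in Tw2+ at an adjusted p under 0.05. Traf1 and Tnfaip3 lie farthest to the left.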

How the data were processed

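RNA-seq was made from sorted Tw2+ and Tw2- non-CMs, 3 libraries each, per the labels. The authors deposited raw read counts per gene symbol, and TopHat2 2.0.0, DESeq2 1.6.3 and the build GRCm38 (mm10) appear in the submitters' processing notes. No annotation, counting tool or strand setting is given in those sources. Columns were matched to samples by name, and 1 column per group could be matched only to its group. The design text calls the libraries biological replicates.

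The quasi-likelihood test of edgeR 4.0.16 (R 4.3.3) was run on these counts (TMM scaling, filterByExpr with a minimum count of 10), after a check on simulated counts. The standard error is the log2 fold change over the square root of F. Exon lengths and positions came from GENCODE M21 (GRCm38), which held 22750 of 24062 symbols and 40 of 41 members. Alternatives used DESeq2 1.42.0, limma 3.58.1, other scalings, filters and thresholds, and leaving out libraries. Every reported member was described, with values per library for those past the test and their partners, and list genes past the test or among the 3 highest per kilobase. Values per library for other members, and windows to print, were chosen after values were seen. Members and lists were chosen with earlier results of these data known. Exact intervals and the level of 3 counts cover counting error only.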

Additional observations from a re-analysis of the deposited data

How the results depend on the processing

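Counts are given as higher and lower in Tw2+, in the order members, all genes, signalling list; the values above were 4 and 8, 976 and 1419, 1 and 6. With 1 library left out in turn, the members ranged from 2 to 5 higher and from 5 to 13 lower, all genes from 81 to 2801 and from 811 to 2906, and the list from 0 to 5 and from 3 to 10. Among all genes, 227 were higher and 885 lower without the unnumbered Tw2+ library, and 300 were higher without the unnumbered Tw2- library. The most member calls came without Tw2+ 3, 5 higher and 13 lower. With Tw2+ 3 and the unnumbered Tw2- library left out together, a setting chosen after seeing the data, 14 members were lower, all genes gave 2565 and 3068, and the list 4 and 13. At an adjusted p under 0.01 the counts were 2 and 5, 90 and 701, 0 and 3. With 50 or more counts in 3 libraries 4 members were lower, and with no count filter 12 were. DESeq2 called 1575 genes and 2 list genes higher. Scaling by library size alone gave 404 genes and 0 list genes higher and moved the median of all genes to -0.28. Scaling to the fibroblast markers moved it to -0.61 and gave 2 members higher and 12 lower, 112 and 3514 genes, and 0 and 17 list genes. RLE and upper-quartile scaling ended the call of Tnfrsf25 (adjusted p = 0.0528 and 0.0541). Numbers 2 and 3 occur in both groups, and deviations of same-numbered libraries correlated at 0.20 and 0.56 across genes, but these 2 pairs were not taken as pairing. On those 4 libraries a replicate block gave 14 members, 2203 genes and 11 list genes lower, Tnfsf10, Tnfrsf10b and Tnfsf13 among them (adjusted p = 0.00479, 0.0214 and 0.0413), and Twist2 passed (adjusted p = 0.0136). The fit without the block gave 2 members and 115 genes higher and 0 and 3 list genes, and lost Tnfrsf12a, Tnfrsf21, Tnfsf11 and Tnfrsf25 (adjusted p = 0.0817, 0.0730, 0.0520 and 0.0703). None of the 12 called members changed direction where it was fitted, which with 50 or more counts in 3 libraries was 7 of the 12. Among the genes followed, signs turned only where the gene was not called. With library size these were Fas (-0.12), Tnfrsf14 (-0.20), Ltbr (-0.099), Tnfrsf1a (-0.079) and Tab2 (-0.17). With the fibroblast markers they were Fas (-0.51), Cd40 (-0.080), Tnfrsf14 (-0.57), Ltbr (-0.44), Tnfrsf1a (-0.43), Tnfrsf23 (-0.21), Ripk1 (-0.36) and Tab2 (-0.52). With the block they were Cd40 (-0.088), Tnfrsf14 (-0.012), Tnfrsf23 (-0.00078) and Tab2 (-0.0066), and without it on those libraries Cd40 (-0.083), Tnfrsf14 (-0.013) and Tnfrsf23 (-0.061). Tnfrsf14 was at -0.0056 with upper-quartile scaling, -0.088 without the unnumbered Tw2- library and -0.063 without both libraries, Tnfrsf22 at 0.055 without Tw2+ 2 (it kept its sign without Tw2- 3, at -0.19), and Tnfrsf1b at 0.20 without Tw2+ 3 and 0.45 without Tw2- 2. The cause of these changes was not tested. With 3 libraries a group and 27.6% biological variation, a common value over all tested genes, small differences could be missed. With under 10 counts per Tw2+ library for Tnfsf11, Ltb, Tnfsf14 and Tnfrsf18, low levels were measured poorly.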
